A study of Mus musculus with 22 samples.

Results

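The uridine diphosphate glycosyltransferase (Ugt) and cytosolic sulfotransferase (Sult) genes of the mouse kidney were followed through cisplatin and KW6002 treatment. Members were the rows of the count table whose symbol begins with Ugt or Sult and a digit, which gave 34 of the 32858 genes listed. Of these, 22 had at least 10 counts in at least 5 of the 22 libraries and are described here: 7 Ugt1, 6 Ugt2, 2 Ugt3, 1 Ugt8, 4 Sult1, 1 Sult2 and 1 Sult5 gene. The other 12 reached at most 21 counts in any library. On the inner side of this limit were Ugt1a9 and Ugt2b35, each with at least 10 counts in 11 libraries, all of them from mice given cisplatin, and next outside it was Sult1e1, the estrogen sulfotransferase, with at least 10 counts in 4 libraries and 151 counts in all.

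The animals were male C57Bl6/J mice aged 8 to 10 weeks, and each gave 1 kidney RNA-Seq library. The vehicle group (n = 5) received neither drug, vehicle being the DMSO, cremophor and saline carrier of KW6002. The KW6002 group (n = 6) received KW6002 (istradefylline, an adenosine receptor antagonist) at 3 mg/kg daily from day -5 to day 7, the cisplatin group (n = 5) received 6 daily injections of cisplatin at 3 mg/kg, and the cotreated group (n = 6) received both on these schedules. Kidneys were taken 72 hours after the last cisplatin injection, so the comparisons ask how renal levels of these mRNAs differed after cisplatin, with and without KW6002, at 1 time point. The sample labels number 3 vehicle and 3 KW6002 mice in the 300s and all other mice in the 500s, and what this numbering stands for is not given in the sources used here.

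Both families attach a polar group to lipophilic molecules. Ugt enzymes sit in the endoplasmic reticulum and transfer a sugar, mostly glucuronic acid from UDP-glucuronic acid, to phenols, bilirubin, steroids, bile acids and drugs, whereas Sult enzymes are cytosolic and transfer sulfate from PAPS to phenols, catecholamines, thyroid hormones and sterols. The kidney, and within it the proximal tubule, is after the liver a main site of glucuronidation, and the conjugates leave through organic anion and ABC transporters.

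The Ugt1a genes are a single locus on chromosome 1 in which each gene has a first exon of its own, spliced to exons that all of them share. The splice junctions of the 7 described genes are shown because they mark where each gene's first exon meets the common exons. They were read from GENCODE M21 transcripts on build GRCm38 (mm10), plus strand. The last 24 bases of the gene's first exon are in lower case, and the first 24 bases of the shared exon (chr1:88215044-88215175) are in capitals.
Ugt1a1: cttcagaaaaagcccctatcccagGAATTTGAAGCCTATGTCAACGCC
Ugt1a2: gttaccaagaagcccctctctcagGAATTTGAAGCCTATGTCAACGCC
Ugt1a6a: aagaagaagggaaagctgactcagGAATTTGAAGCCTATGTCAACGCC
Ugt1a6b: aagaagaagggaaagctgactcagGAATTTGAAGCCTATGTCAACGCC
Ugt1a7c: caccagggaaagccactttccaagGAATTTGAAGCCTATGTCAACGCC
Ugt1a9: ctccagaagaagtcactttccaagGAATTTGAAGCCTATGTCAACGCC
Ugt1a10: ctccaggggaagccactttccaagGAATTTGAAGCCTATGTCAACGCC
Capitals are the same in every line, and Ugt1a6a and Ugt1a6b are alike in the lower-case part too. The own exon of Ugt1a2 lies at chr1:88200601-88201500, that of Ugt1a1 at chr1:88211959-88212871 and that of Ugt1a10 at chr1:88055411-88056336.

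In the authors' union counting, a read that falls on exons of several genes is given to none, so the Ugt1a counts come from the unshared part of each gene. That part held 39.4% to 49.7% of the exonic bases of the 7 genes. All gene positions given are those of GENCODE M21 on GRCm38. For Ugt1a1, Ugt1a2, Ugt1a6b, Ugt1a9 and Ugt1a10 it lay wholly upstream of the common exons and measured 879 to 949 bases. For Ugt1a7c, 998 of 1915 unshared bases lay within the common part of the locus, and for Ugt1a6a 1920 of 2142, so mRNA of other Ugt1a genes could add to both and their values are uncertain. The first exon shown for Ugt1a6a has 954 bases, but only 222 unshared bases of this gene lay upstream of the common exons. Most of that exon is thus annotated for another gene as well and would add little to the counts of Ugt1a6a. Reads of 50 bases also do not separate some relatives: only 51.7% of the 50-base windows of Ugt1a6b's unshared exon were found in no other gene (the rest mostly in Ugt1a6a), 58.3% for Ugt2b5, 62.6% for Ugt2b38, 81.7% for Ugt2b37 and 81.8% for Ugt1a10, against at least 92.1% for the other 17 genes. Exons of every Ugt1a gene overlap Gm20528 on the other strand, by 394 to 922 bases, those of Sult1a1 overlap Sgf29, and those of Sult2b1 overlap Gm31597 and Lmtk3, and whether strand was used in counting is not given in the sources used here.

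**Figure D1:**
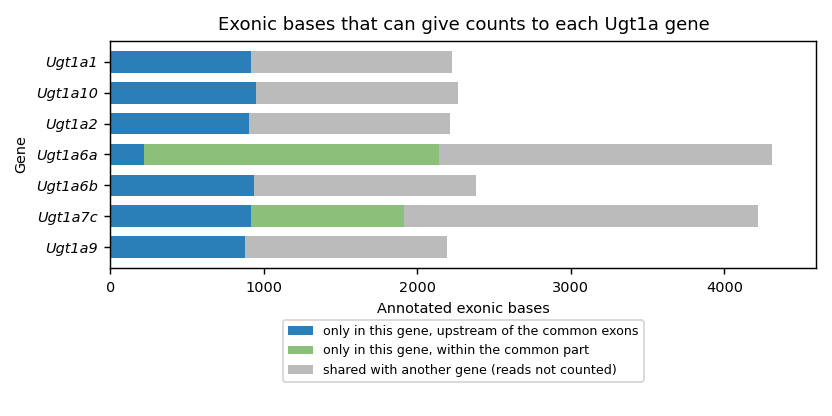
Annotated exonic bases of the 7 Ugt1a genes (horizontal axis), split by color into bases found in no other annotated exon of the same strand upstream of the common exons, such bases within the common part, and bases shared with another gene. Ugt1a7c and Ugt1a6a are the genes with 998 and 1920 unshared bases within the common part, and the other 5 genes have none there.

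Libraries held 26471762 to 40510754 counts. Levels are given as TMM-normalized CPM, counts scaled to a common library size, and tests are edgeR quasi-likelihood tests over the 17131 genes with enough counts, adjusted by the Benjamini-Hochberg method and read at an adjusted p below 0.05. Proximal tubule markers identified the tissue as kidney: the summed level of 10 of them ran from 35979 to 40643 CPM in vehicle mice, 2454 to 4341 CPM in cisplatin mice and 7586 to 13276 CPM in cotreated mice, with all 10 lower in cisplatin against vehicle mice and 9 of 10 higher in cotreated against cisplatin mice. These markers thus differed between the same groups as the genes below, and their part in those results was not tested. Of 8 liver markers 4 were higher and 4 lower with cisplatin, with Alb at 9.08 ± 1.01 CPM in vehicle and 1.46 ± 0.542 CPM in cisplatin mice, so the list does not follow a single direction (its sum was 1472 to 2051 CPM in vehicle, 1036 to 1374 CPM in cisplatin and 882 to 1582 CPM in cotreated mice). Fat markers summed to 29.1 to 363, 130.1 to 235 and 3.14 to 84.1 CPM in these groups. The part of either list in the results was not tested. In RNA from whole kidney, fewer cells of a type and less RNA per cell cannot be told apart. Adrenal cortex markers summed to 64.3 CPM in cotreated mouse 6 and to at most 2.69 CPM in the other 21 libraries, and each member's calls were also taken without this library.

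Cisplatin moved 20 of the 22 genes (70.5% of all tested genes), and in opposite directions within each family. Compared with vehicle, 11 members rose, a direction called for 34.6% of all tested genes, and 9 fell, a direction called for 35.9%. Risers were 6 of the 7 Ugt1a genes (Ugt1a1, Ugt1a2, Ugt1a6a, Ugt1a7c, Ugt1a9 and Ugt1a10), Ugt2b34, Ugt2b35, Sult1a1, Sult2b1 and Sult5a1. Genes that fell were Ugt1a6b, Ugt2a3, Ugt2b37, Ugt2b38, Ugt3a1, Ugt3a2, Ugt8a, Sult1b1 and Sult1c2, whereas Ugt2b5 and Sult1d1 did not pass the test. Ugt1a9 and Ugt2b35 met the limit on counts only through mice given cisplatin and so had to be higher there. This leaves 9 risers among the other 20 genes. Ugt2a3, among the genes that fell, met the limit only with mice not given cisplatin, so its fall is a description. Ugt1a9, Ugt2b35 and Ugt2a3 are also in the counts against vehicle for cotreated mice. The stricter thresholds of the study (adjusted p under 0.01 and more than 1 unit of log2 change) were met by 8 rising and 7 falling members, 15 of 22, and by 12.1%, 12.1% and 24.1% of all tested genes. The 8 include Ugt1a9 and Ugt2b35, and the 7 include Ugt2a3. The groups did not overlap for 18 members, Ugt1a9, Ugt2b35 and Ugt2a3 among them, against 55.3% of all tested genes. The median log2 fold change was 0.22 over the members and -0.01 over all tested genes. With the mice numbered in the 500s alone, 10 members were higher and 7 lower, the calls lost being Ugt1a7c, Ugt1a6b and Sult1b1.

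**Figure D2:**
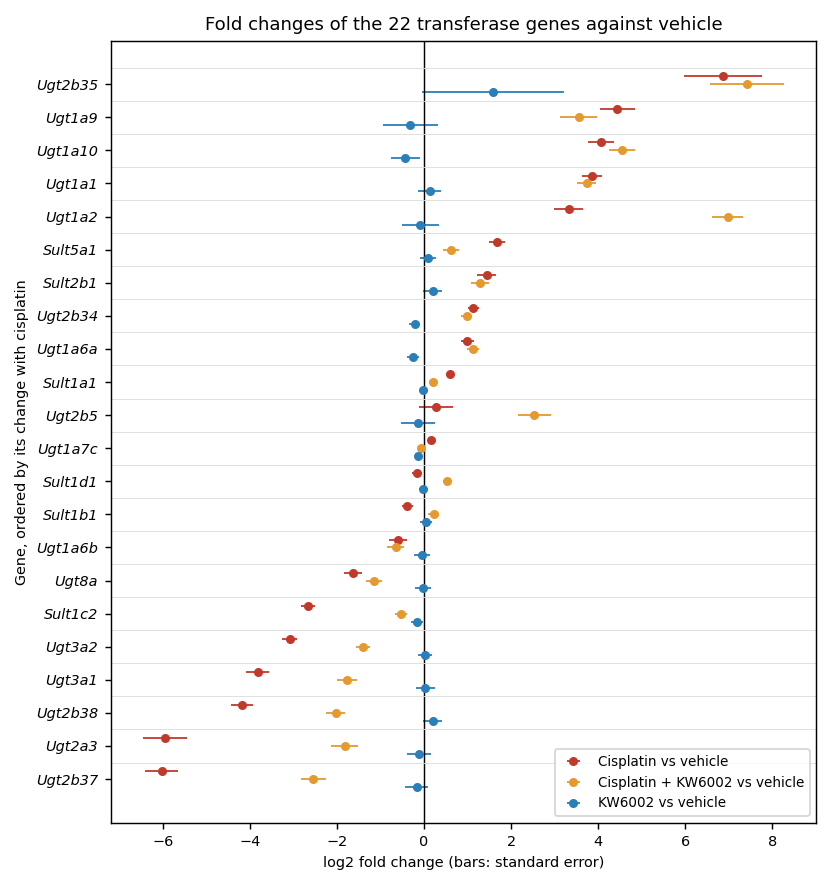
Log2 fold change against vehicle (horizontal axis, bars are standard errors) of the 22 genes, ordered from the highest to the lowest change with cisplatin, for cisplatin (red), cisplatin plus KW6002 (orange) and KW6002 (blue). The fitted values of Ugt2b35 and Ugt2a3 rest on groups with at most 1 count in a library and depend on the prior count. Cisplatin values run from below -6 to above 6, the blue points lie near 0 except for Ugt2b35, and Ugt1a2 has the widest gap between red and orange after Ugt2a3.

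Ugt1a2 rose with cisplatin and was by far the highest in mice given both drugs. Its level was 0.906, 1.68, 1.68, 1.72, and 1.98 CPM in the 5 vehicle mice and 6.84, 13.5, 12.0, 14.5, and 32.8 CPM in the 5 cisplatin mice. In the 6 cotreated mice it ran from 124 to 260.2 CPM (median 203), and in the 6 KW6002 mice from 1.17 to 2.11 CPM (median 1.41). No cisplatin mouse overlapped the vehicle mice, and no cotreated mouse overlapped the cisplatin mice, the lowest cotreated value being above the highest cisplatin value. The fitted difference was a 9.97-fold rise with cisplatin (log2 fold change 3.32 ± 0.34 (SE), adjusted p = 1.13e-08), a further 12.6-fold rise in cotreated against cisplatin mice (log2 fold change 3.66 ± 0.27 (SE), adjusted p = 3.03e-10) and a 126-fold difference between cotreated and vehicle mice (log2 fold change 6.97 ± 0.35 (SE), adjusted p = 2.96e-13). The effect of KW6002 differed between mice with and without cisplatin by 3.74 ± 0.50 on the log2 scale (adjusted p = 3.94e-06). Only 40.7% of its exonic bases are unshared, and Ugt1a5 was the gene with most windows in common, at no more than 9 counts in a library.

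Ugt1a10, whose human counterpart conjugates phenols in the gut, rose in both groups given cisplatin. It stood at 3.11, 1.92, 1.68, 3.45, and 5.40 CPM in vehicle mice and at 30.6, 43.3, 50.7, 57.5, and 79.5 CPM in cisplatin mice. Cotreated mice ranged from 52.8 to 87.5 CPM (median 74.1) and KW6002 mice from 0.897 to 3.58 CPM (median 2.303). Vehicle and cisplatin mice did not overlap, while cisplatin and cotreated mice did. Its rise was 16.6-fold with cisplatin (log2 fold change 4.06 ± 0.30 (SE), adjusted p = 4.65e-11) and 23.4-fold with cotreatment (log2 fold change 4.55 ± 0.30 (SE), adjusted p = 2.68e-11). Vehicle mice numbered in the 300s had 1.68 to 3.11 CPM and those in the 500s 3.45 to 5.40 CPM. With the mice numbered in the 500s alone, the log2 fold changes were smaller, 3.55 (adjusted p = 1.41e-07) and 4.04 (adjusted p = 1.04e-07). Between cotreated and cisplatin mice the difference did not pass the test (log2 fold change 0.49 ± 0.24 (SE), adjusted p = 0.0817), but it did among the mice numbered in the 500s (0.49, adjusted p = 0.0355) and without cisplatin mouse 5 (0.69, adjusted p = 0.0174).

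Ugt1a1, the bilirubin-conjugating enzyme, was scarce in control kidneys and rose with cisplatin. Vehicle mice had 0.777, 0.521, 0.974, 0.422, and 0.976 CPM and cisplatin mice 8.60, 13.4, 10.7, 10.1, and 11.3 CPM. The cotreated range was 5.56 to 11.6 CPM (median 10.9), and the KW6002 range was 0.561 to 1.05 CPM (median 0.839). Both cisplatin-treated groups lay above every control value and overlapped each other. The rise was 14.5-fold in cisplatin mice (log2 fold change 3.86 ± 0.23 (SE), adjusted p = 7.65e-13) and 13.3-fold in cotreated mice (log2 fold change 3.73 ± 0.22 (SE), adjusted p = 4.93e-12), and the difference between these groups was -0.13 ± 0.17 (SE) on the log2 scale (adjusted p = 0.541). Ugt1a9, a phenol transferase, had at most 7 counts in a control library (0 to 0.227 CPM in vehicle mice) and 1.52 to 2.55 CPM in cisplatin mice. Because only mice given cisplatin, with or without KW6002, carried it over the limit on counts, these levels are a description. Ugt1a9 was lower in cotreated mice (0.830 to 1.23 CPM) than in cisplatin mice (log2 fold change -0.88 ± 0.27 (SE), adjusted p = 0.00775), with no overlap.

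The other 3 genes of the locus moved less. Ugt1a7c had the highest CPM of the locus in control kidneys, but mRNA of other Ugt1a genes could add to its counts. It had 292, 282, 268, 308, and 311 CPM in vehicle mice and 341, 329.8, 298, 320.3, and 352 CPM in cisplatin mice. Cotreated mice had 265 to 310.4 CPM (median 272) and KW6002 mice 236 to 286 CPM (median 267). Vehicle and cisplatin mice overlapped, as did cisplatin and cotreated mice, and the changes were small: log2 fold change 0.17 ± 0.06 (SE), adjusted p = 0.0172 with cisplatin, and log2 fold change -0.24 ± 0.06 (SE), adjusted p = 0.00111 for cotreated against cisplatin mice. The first of these was lost among the mice numbered in the 500s (0.08, adjusted p = 0.405), with the label series as a covariate (0.14, adjusted p = 0.0829) and without vehicle mouse 3 (0.14, adjusted p = 0.0597). Ugt1a6a, which conjugates planar phenols, was at 4.69, 3.97, 4.06, 3.41, and 5.20 CPM in vehicle mice and 7.59, 8.16, 7.83, 9.33, and 9.71 CPM in cisplatin mice. It had 6.42 to 11.8 CPM (median 9.22) in cotreated mice and 3.06 to 4.36 CPM (median 3.55) in KW6002 mice. Of its 2142 unshared bases 1920 lie within the common part of the locus, so mRNA of other Ugt1a genes could add to these values. Their part in the rise was not tested. All mice given cisplatin, with or without KW6002, had higher Ugt1a6a values than all other mice (log2 fold change 0.99 ± 0.14 (SE), adjusted p = 1.58e-06 for cisplatin against vehicle). Its near copy Ugt1a6b gave 13 to 50 counts per library, 0.971 to 1.48 CPM in vehicle and 0.612 to 0.879 CPM in cisplatin mice (log2 fold change -0.60 ± 0.21 (SE), adjusted p = 0.0126), and this call did not hold with scaling by library size (-0.38, adjusted p = 0.101), with the label series as a covariate (-0.43, adjusted p = 0.0982) or among the mice numbered in the 500s (-0.50, adjusted p = 0.122).

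**Figure D3:**
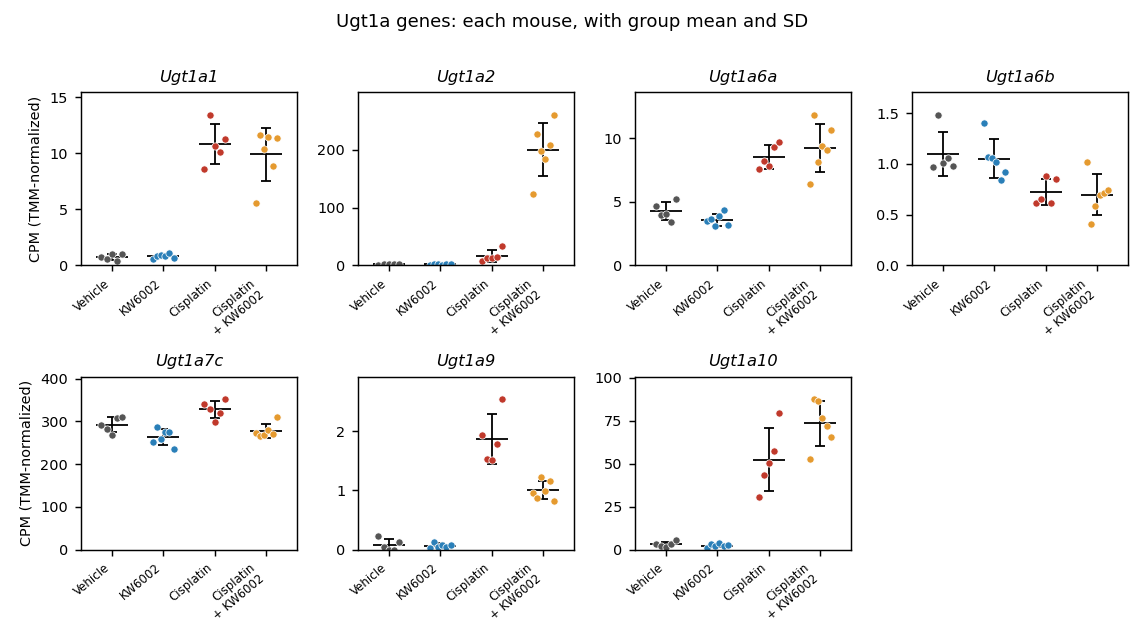
Levels of the 7 Ugt1a genes in each mouse (points, TMM-normalized CPM on a linear axis from 0) by group, with the group mean and SD (black line and bar, n = 5 or 6). Ugt1a2 reaches 124 to 260.2 CPM in cotreated mice against 6.84 to 32.8 CPM in cisplatin mice, while Ugt1a1 and Ugt1a10 overlap between these groups and Ugt1a9 is lower in the cotreated one.

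The most abundant Ugt gene of the control kidney, Ugt3a2, was among those that fell. Ugt3 enzymes differ from the other families in their sugar: Ugt3a1 uses UDP-N-acetylglucosamine and Ugt3a2 uses UDP-glucose and UDP-xylose. Ugt3a2 (chr15:9335550-9370955, plus strand) stood at 1471, 1544, 1619.5, 1603, and 1555 CPM in vehicle mice and at 93.5, 205, 169, 195, and 254 CPM in cisplatin mice. In cotreated mice it ran from 474 to 746 CPM (median 591), and in KW6002 mice from 1442 to 1615 CPM (median 1611). Cotreated mice lay between the other groups without touching either. The gene was 8.50-fold lower with cisplatin (log2 fold change -3.09 ± 0.18 (SE), adjusted p = 5.67e-13), 3.22-fold higher in cotreated than in cisplatin mice (log2 fold change 1.69 ± 0.16 (SE), adjusted p = 1.47e-08), and still 2.64-fold lower in cotreated than in vehicle mice (log2 fold change -1.40 ± 0.16 (SE), adjusted p = 1.03e-07).

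Its neighbor Ugt3a1 (chr15:9276888-9315032, plus strand) followed the same order. Vehicle mice had 205, 199, 233, 262, and 237 CPM and cisplatin mice 6.18, 16.6, 15.5, 18.2, and 23.97 CPM. Cotreated mice had 42.9 to 101.9 CPM (median 66.3) and KW6002 mice 207 to 264 CPM (median 231). Again no group overlapped another except vehicle and KW6002. Cisplatin lowered it 14.1-fold (log2 fold change -3.82 ± 0.26 (SE), adjusted p = 8.63e-12), and it was 4.13-fold higher in cotreated than in cisplatin mice (log2 fold change 2.05 ± 0.24 (SE), adjusted p = 1.96e-07).

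Ugt8a (chr3:125865271-125938619, minus strand) makes galactosylceramide, the precursor of sulfatide, and is a lipid-synthesis enzyme rather than a drug-conjugating one. Vehicle mice had 83.9, 104, 134, 195, and 187 CPM and cisplatin mice 42.7, 47.9, 43.3, 43.6, and 47.8 CPM. Cotreated mice ranged from 53.2 to 74.2 CPM (median 63.4) and KW6002 mice from 99.6 to 196 CPM (median 132). The wide spread of the control groups followed the label series: mice numbered in the 300s had 83.9 to 134 CPM with vehicle and 99.6 to 104 CPM with KW6002, and those in the 500s had 187 to 195 CPM and 160.3 to 196 CPM. Cisplatin against vehicle gave log2 fold change -1.64 ± 0.21 (SE), adjusted p = 2.29e-07, and among the mice numbered in the 500s the log2 fold change was -2.09 (adjusted p = 8.69e-12). Cotreated and cisplatin mice did not overlap (log2 fold change 0.49 ± 0.19 (SE), adjusted p = 0.0373), a call that was lost when any of 7 single libraries was left out (adjusted p up to 0.0739) or with scaling by library size (0.43, adjusted p = 0.0587). With the same log2 value of 0.49 it had adjusted p = 1.84e-05 among the mice numbered in the 500s and 8.36e-05 with the label series as a covariate. The difference of KW6002 effects with and without cisplatin did not pass for Ugt8a with all mice (0.51 ± 0.27, adjusted p = 0.135) but did among the mice numbered in the 500s (0.62, adjusted p = 0.00138), with the covariate (0.58, adjusted p = 0.000709) and without vehicle mouse 1 (0.65, adjusted p = 0.0388).

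The Ugt2 genes, whose products conjugate steroids and bile acids, lie together on chromosome 5 and split into genes that fell and genes that rose. Ugt2b38 (chr5:87409942-87424203, minus strand) was the most abundant, with 513, 573, 436, 515, and 474 CPM in vehicle mice and 16.2, 23.9, 23.7, 26.7, and 48.4 CPM in cisplatin mice. It had 83.9 to 189.9 CPM (median 116) in cotreated mice and 422 to 763 CPM (median 569) in KW6002 mice. Every cisplatin mouse was below every cotreated mouse, and these below every control. The gene was 18.1-fold lower with cisplatin (log2 fold change -4.18 ± 0.25 (SE), adjusted p = 1.32e-12) and 4.43-fold higher in cotreated than in cisplatin mice (log2 fold change 2.15 ± 0.23 (SE), adjusted p = 5.42e-08).

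Ugt2b37 (chr5:87240493-87254804, minus strand) lost the most among genes with a level that could be fitted. Vehicle mice had 42.8, 69.5, 41.4, 61.8, and 82.9 CPM and cisplatin mice 0.639, 0.653, 0.906, 0.829, and 1.56 CPM. Cotreated mice had 7.12 to 15.5 CPM (median 9.55) and KW6002 mice 27.2 to 100.4 CPM (median 46.6). The KW6002 mice numbered in the 300s had 27.2 to 36 CPM and those in the 500s 57.3 to 100.4 CPM. In vehicle mice these ranges overlapped (41.4 to 69.5 and 61.8 to 82.9 CPM). The groups kept the order vehicle, cotreated, cisplatin with no overlap. The difference was 65.4-fold between vehicle and cisplatin mice (log2 fold change -6.03 ± 0.39 (SE), adjusted p = 3.99e-12), 11.2-fold between cotreated and cisplatin mice (log2 fold change 3.49 ± 0.39 (SE), adjusted p = 9.69e-08) and 5.83-fold between vehicle and cotreated mice (log2 fold change -2.54 ± 0.28 (SE), adjusted p = 7.98e-08). Ugt2a3 was scarce, with 177 counts in the 5 vehicle libraries together, 3 in the 5 cisplatin libraries and 68 in the 6 cotreated libraries. Its summed level was higher in vehicle than in cisplatin mice by a ratio of 76.5 (95% counting interval 25.8 to 374). It was higher in cotreated than in cisplatin mice by 21.6 (95% counting interval 7.09 to 107, edgeR adjusted p = 2.98e-06). These intervals cover counting error only. Ugt2a3 met the limit on counts only with the mice not given cisplatin, which had at least 20 counts each. Its levels in vehicle against cisplatin mice are therefore a description.

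Ugt2b34 (chr5:86889767-86906937, minus strand) moved the other way. It was at 47.0, 48.0, 46.6, 42.1, and 41.1 CPM in vehicle mice and at 95.6, 95.2, 94.6, 99.6, and 105 CPM in cisplatin mice. Cotreated mice spread from 64.8 to 117 CPM (median 81.0) and KW6002 mice from 35.01 to 43.0 CPM (median 38.7). All mice given cisplatin were above all others, with overlap between those with and without KW6002. It rose 2.18-fold with cisplatin (log2 fold change 1.12 ± 0.12 (SE), adjusted p = 3.54e-08), and the difference between cotreated and cisplatin mice did not pass the test (log2 fold change -0.15 ± 0.12 (SE), adjusted p = 0.289). Ugt2b5, which shares many reads with Ugt2b38, had 1.36, 1.44, 0.907, 1.48, and 1.53 CPM in vehicle mice, 0.985, 0.954, 1.94, 2.33, and 1.90 CPM in cisplatin mice and 2.63 to 13.6 CPM (median 7.35) in cotreated mice. Its KW6002 range was 0.561 to 1.62 CPM (median 1.33), with 0.561 to 1.10 CPM in mice numbered in the 300s and 1.57 to 1.62 CPM in the 500s. Vehicle mice had 0.907 to 1.44 and 1.48 to 1.53 CPM in these series. Only the cotreated mice stood apart (log2 fold change 2.26 ± 0.36 (SE), adjusted p = 1.49e-05 against cisplatin, and log2 fold change 2.53 ± 0.37 (SE), adjusted p = 4.83e-06 against vehicle), whereas Ugt2b38 was lowest in cisplatin mice. Ugt2b35 had 2 counts over the vehicle libraries, 384 over the cisplatin libraries and 606 over the cotreated libraries, and as with Ugt1a9 these counts are a description, since the mice given cisplatin carried the gene over the limit.

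Cotreated mice were uneven in some Ugt2 genes. In cotreated mice 1 to 6, Ugt2b35 had 1.05, 4.64, 1.10, 5.33, 5.10, and 0.859 CPM. Ugt2b5 had 4.51, 9.97, 4.73, 13.6, 11.1, and 2.63 CPM and Ugt2b34 70.4, 85.0, 64.8, 117, 116, and 76.9 CPM in the same order of mice. Mice 2, 4 and 5 held the highest values of these 3 genes and of Ugt2a3, which had 3 to 20 counts in a cotreated library. The other genes of the cluster did not share this order, Ugt2b38 being highest in mice 1 and 6 and Ugt2b37 in mice 6 and 3. This was noticed after the values were seen and was not tested.

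**Figure D4:**
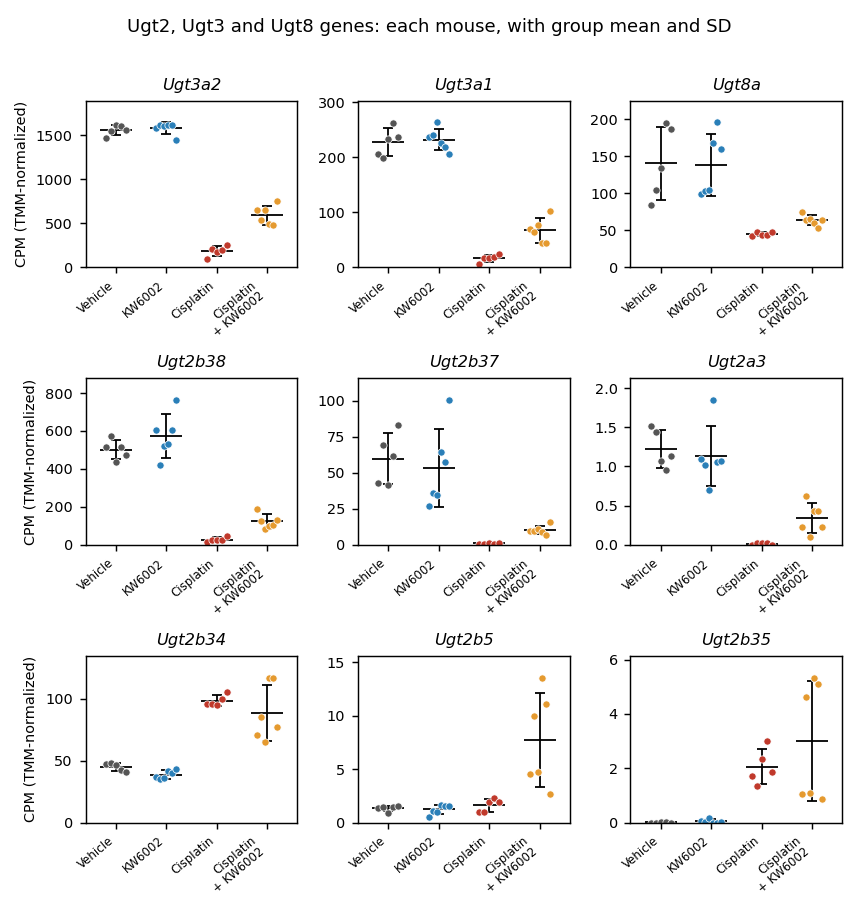
Levels of the Ugt3, Ugt8 and Ugt2 genes in each mouse (points, TMM-normalized CPM on a linear axis from 0) by group, with the group mean and SD (black line and bar, n = 5 or 6). Ugt3a2, Ugt3a1, Ugt8a, Ugt2b38, Ugt2b37 and Ugt2a3 are lowest in cisplatin mice and intermediate in cotreated mice, Ugt2b34 and Ugt2b35 are higher in both groups given cisplatin, and Ugt2b5 stands out in cotreated mice.

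Most Sult counts came from Sult1d1, which did not pass the test with cisplatin alone and rose with cotreatment. This enzyme sulfates dopamine and other catecholamines, and its gene held 88.8% to 91.1% of the summed CPM of the 6 described Sult genes in vehicle mice and 93.4% to 94.5% in cisplatin mice. Its level (chr5:87554645-87569027, minus strand) was 908, 1056, 973, 927, and 1121 CPM in vehicle mice and 724, 1035, 792, 834, and 1067 CPM in cisplatin mice. Cotreated mice had 1189 to 1698 CPM (median 1433) and KW6002 mice 865 to 1054 CPM (median 1023). Cisplatin and vehicle mice overlapped (log2 fold change -0.16 ± 0.11 (SE), adjusted p = 0.172), whereas every cotreated mouse was above all mice of the other groups. It was 1.62-fold higher in cotreated than in cisplatin mice (log2 fold change 0.69 ± 0.10 (SE), adjusted p = 5.36e-06) and 1.44-fold higher than in vehicle mice (log2 fold change 0.53 ± 0.10 (SE), adjusted p = 0.000115). The effect of KW6002 differed with cisplatin by 0.72 ± 0.14 on the log2 scale (adjusted p = 0.000353).

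Sult1c2 (chr17:53829637-53846339, minus strand), a phenol sulfotransferase, fell with cisplatin and was nearer to control levels after cotreatment. Vehicle mice had 79.8, 71.0, 79.5, 87.6, and 88.3 CPM and cisplatin mice 9.24, 10.4, 11.2, 13.6, and 19.8 CPM. Cotreated mice had 40.1 to 63.8 CPM (median 58.2) and KW6002 mice 67.5 to 83.6 CPM (median 71.5). The highest cotreated value remained below the lowest vehicle value. The gene was 6.33-fold lower with cisplatin (log2 fold change -2.66 ± 0.16 (SE), adjusted p = 7.42e-13), 4.36-fold higher in cotreated than in cisplatin mice (log2 fold change 2.13 ± 0.15 (SE), adjusted p = 1.24e-10), and 1.45-fold lower in cotreated than in vehicle mice (log2 fold change -0.54 ± 0.14 (SE), adjusted p = 0.00188).

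Sult1a1 (chr7:126672865-126676432, minus strand), a phenol sulfotransferase, rose with cisplatin and did not pass the test in cotreated against vehicle mice (log2 fold change 0.21 ± 0.09 (SE), adjusted p = 0.0595). Its values were 20.3, 25.9, 20.1, 22.2, and 22.6 CPM in vehicle mice and 30.5, 38.3, 34.7, 32.8, and 31.6 CPM in cisplatin mice. Cotreated mice ranged from 20.1 to 31.0 CPM (median 25.1) and KW6002 mice from 19.5 to 24.3 CPM (median 22.02). Cisplatin mice were above all vehicle mice (log2 fold change 0.60 ± 0.10 (SE), adjusted p = 1.02e-05), and cotreated mice were lower than cisplatin mice with a slight overlap (log2 fold change -0.39 ± 0.09 (SE), adjusted p = 0.00111). Sult1b1 (chr5:87513339-87538195, minus strand), which acts on phenols and thyroid hormones, was at 4.43, 4.69, 5.14, 4.58, and 3.55 CPM in vehicle mice, 2.61, 3.41, 3.14, 3.88, and 4.13 CPM in cisplatin mice and 4.08 to 6.27 CPM (median 5.27) in cotreated mice. Its KW6002 group had 4.14 to 5.62 CPM (median 4.48). The groups overlapped, and the fall with cisplatin (log2 fold change -0.38 ± 0.14 (SE), adjusted p = 0.0156) was lost with scaling by library size (-0.17, adjusted p = 0.266), with the label series as a covariate (-0.34, adjusted p = 0.0613), among the mice numbered in the 500s (-0.25, adjusted p = 0.282) and without cisplatin mouse 1 (-0.30, adjusted p = 0.0545). The 2 scarcest Sult genes rose: Sult5a1 had 1.20 to 1.94 CPM in vehicle and 4.55 to 5.41 CPM in cisplatin mice (log2 fold change 1.67 ± 0.19 (SE), adjusted p = 5.26e-08), and Sult2b1, which sulfates cholesterol, had 0.641 to 1.88 CPM and 2.62 to 3.30 CPM (log2 fold change 1.44 ± 0.22 (SE), adjusted p = 4.03e-06). Neither gene's groups overlapped. Sult5a1 was lower again in cotreated mice (1.91 to 3.68 CPM, log2 fold change -1.05 ± 0.17 (SE), adjusted p = 2.16e-05), without overlap.

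**Figure D5:**
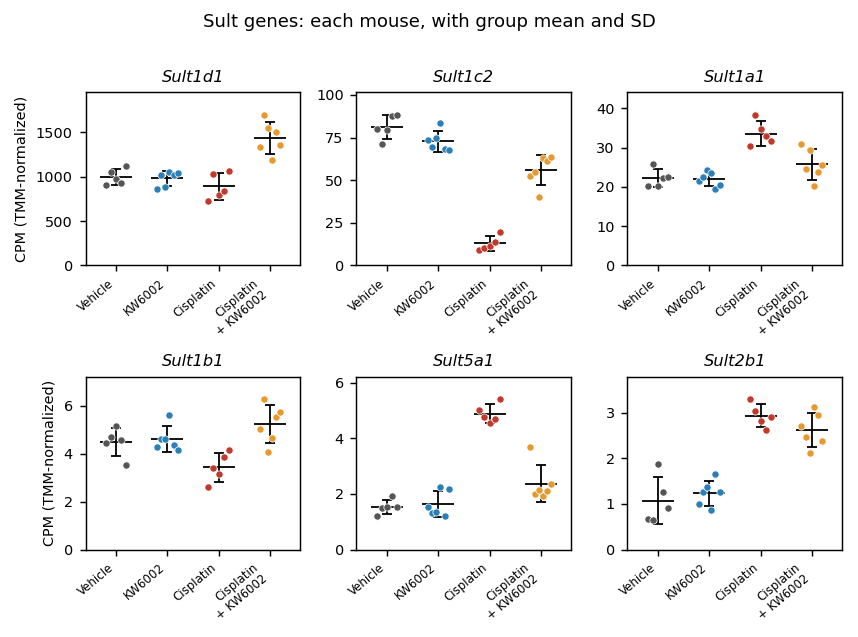
Levels of the 6 Sult genes in each mouse (points, TMM-normalized CPM on a linear axis from 0) by group, with the group mean and SD (black line and bar, n = 5 or 6). Sult1d1 is highest in the cotreated mice, Sult1c2 is lowest in the cisplatin mice, and Sult1a1, Sult5a1 and Sult2b1 are higher in cisplatin than in vehicle mice.

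Adding KW6002 to cisplatin moved 15 of the 22 genes (55.8% of all tested genes). Against cisplatin alone, 11 members rose (28.6% of all tested genes were called higher) and 4 fell (27.2% called lower). The 11 were Ugt1a2, Ugt2a3, Ugt2b37, Ugt2b38, Ugt2b5, Ugt3a1, Ugt3a2, Ugt8a, Sult1b1, Sult1c2 and Sult1d1, and the 4 were Ugt1a7c, Ugt1a9, Sult1a1 and Sult5a1. The groups did not overlap for 12 members, against 37.8% of all tested genes. The median log2 fold change was 0.52 over the members and 0.005 over all tested genes. At the stricter thresholds 8 members were higher (4.65% of all genes) and 1, Sult5a1, was lower (5.66%), 9 in all (10.3%). Without cotreated mouse 6, the library with adrenal markers, 10 were higher, Ugt8a being lost (0.48, adjusted p = 0.0551), and 4 lower. Because these comparisons share groups, their values for a gene are given side by side and were not set against each other.

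Cotreated mice differed from vehicle mice in 19 of the 22 genes (59.7% of all tested genes). Against vehicle, 11 members were higher (29.8% of all tested genes were called higher) and 8 lower (29.9% called lower), with no overlap for 17 members and for 37.5% of all tested genes. Higher were Ugt1a1, Ugt1a2, Ugt1a6a, Ugt1a9, Ugt1a10, Ugt2b34, Ugt2b35, Ugt2b5, Sult1d1, Sult2b1 and Sult5a1, and lower were Ugt1a6b, Ugt2a3, Ugt2b37, Ugt2b38, Ugt3a1, Ugt3a2, Ugt8a and Sult1c2. At the stricter thresholds 8 were higher (5.83%) and 6 lower (7.59%), 14 in all (13.4%). Ugt1a9 and Ugt2b35 are in both counts of higher genes, and Ugt2a3 is in both counts of lower genes. All of them are in the count without overlap, and the limit on counts bears on them as given above. Summed over the 16 Ugt genes, the level was 2839 ± 124 CPM (SD, n = 5) in vehicle mice, 793 ± 118 CPM in cisplatin mice (n = 5) and 1525 ± 149 CPM in cotreated mice (n = 6). For the 6 Sult genes the sums were 1108 ± 91.0, 948 ± 157 and 1532 ± 177 CPM. Ugt3a2 made up 53.4% to 58.1% of the Ugt sum in vehicle mice and 14.3% to 26.1% in cisplatin mice, where Ugt1a7c had the highest CPM of the Ugt genes. The Ugt1a7c value can include mRNA of other Ugt1a genes. These sums and shares add CPM without regard to length. The Ugt1a genes enter them only through their unshared part, 39.4% to 49.7% of their exonic bases, and so weigh less than the other Ugt genes. They describe counts and do not measure the total of Ugt mRNA.

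KW6002 without cisplatin moved none of the 22 genes past the threshold (0.0175% of all tested genes were called higher and 0% lower). The smallest adjusted p was 0.333, DESeq2 also called 0 members, and 1 member, Ugt1a7c, had an unadjusted p below 0.05, as did 11.3% of all tested genes. For the abundant genes the log2 fold change was 0.02 ± 0.16 (SE) for Ugt3a2, -0.02 ± 0.10 for Sult1d1 and -0.15 ± 0.06 for Ugt1a7c. Among the mice numbered in the 300s and among those in the 500s, 0 members were called as well. The effect of KW6002 differed between mice with and without cisplatin for 12 members (42.7% of all tested genes), positively for 10 (22.8% of all tested genes) and negatively for 2, Sult1a1 and Sult5a1 (19.9%). Ugt8a joined them with the label series as a covariate and among the mice numbered in the 500s, as given above. Among the latter mice Ugt1a10 joined too (1.24, adjusted p = 0.0486), while Sult1b1 (0.40, adjusted p = 0.241) and Sult1a1 (-0.30, adjusted p = 0.19) lost their calls. At the stricter thresholds it was positive for 8 (4.24%) and negative for 1 (4.33%), 9 in all (8.58%). After Ugt2a3, whose value rests on 3 counts, the widest positive differences were those of Ugt1a2 (3.74 ± 0.50) and Ugt2b37 (3.65 ± 0.47).

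Levels of different genes can be compared only per length, here as mean CPM per kilobase of unshared exon. In vehicle mice the order was Ugt3a2 (502), Sult1d1 (406), Ugt2b38 (266), Ugt1a7c (153) and Ugt3a1 (85.1). In cotreated mice it was Sult1d1 (586), Ugt1a2 (223), Ugt3a2 (191), Ugt1a7c (145) and Ugt1a10 (77.4). This scale does not correct for windows found in other genes, so genes with few windows of their own, above all Ugt2b38 (62.6%, while every window of Sult1d1 is its own), can stand too low, and the place of Ugt2b38 relative to Sult1d1 and, in cotreated mice, to Ugt1a10 is uncertain. The place of Ugt1a7c is uncertain as well, since mRNA of other Ugt1a genes could add to its counts. Ugt1a2 had 1.77 CPM per kilobase in vehicle mice. Among controls the spread between mice was narrowest for Ugt3a2, with a coefficient of variation of 3.75% in vehicle mice, and in cisplatin mice it was 32.2%.

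Promoters of 4 genes are shown because they represent the main patterns: Ugt1a2 (highest after cotreatment), Ugt1a10 (higher in both groups given cisplatin), Ugt3a1 (lower in both) and Sult1d1 (higher only after cotreatment). Sequences are from RefSeq, build GRCm38.p6, from 250 bases before to 50 after the start site, on the strand of the gene. The Ugt3a1 window lies inside the GENCODE gene, which starts at chr15:9276888, so the 2 sources differ in its start site. The windows of Ugt1a2, Ugt1a10 and Sult1d1 include the GENCODE starts of these genes. Capitals mark the HNF1 motif core GTTAAT, the TATA motif TATAAA and the xenobiotic response core GCGTG on either strand, and the marked matches do not overlap.
Ugt1a2 promoter, chr1:88200361-88200660, plus strand: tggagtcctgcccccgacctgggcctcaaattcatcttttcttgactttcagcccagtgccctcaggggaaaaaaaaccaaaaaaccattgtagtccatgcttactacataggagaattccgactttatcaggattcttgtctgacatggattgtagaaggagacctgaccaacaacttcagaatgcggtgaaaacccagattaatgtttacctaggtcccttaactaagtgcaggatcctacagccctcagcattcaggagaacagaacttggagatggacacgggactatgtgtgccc
Ugt1a10 promoter, chr1:88055161-88055460, plus strand: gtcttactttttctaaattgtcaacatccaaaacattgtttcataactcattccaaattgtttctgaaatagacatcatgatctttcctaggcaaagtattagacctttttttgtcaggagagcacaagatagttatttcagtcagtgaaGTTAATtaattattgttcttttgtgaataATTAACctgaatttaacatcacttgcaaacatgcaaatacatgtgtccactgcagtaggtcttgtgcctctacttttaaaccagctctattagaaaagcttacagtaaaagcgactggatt
Ugt3a1 promoter, chr15:9279579-9279878, plus strand: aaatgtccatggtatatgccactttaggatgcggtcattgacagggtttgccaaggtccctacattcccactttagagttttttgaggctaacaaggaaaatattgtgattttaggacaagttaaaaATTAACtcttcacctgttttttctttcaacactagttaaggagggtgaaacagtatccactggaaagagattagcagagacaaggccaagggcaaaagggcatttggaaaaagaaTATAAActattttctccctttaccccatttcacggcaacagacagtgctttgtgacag
Sult1d1 promoter, chr5:87568957-87569256, minus strand: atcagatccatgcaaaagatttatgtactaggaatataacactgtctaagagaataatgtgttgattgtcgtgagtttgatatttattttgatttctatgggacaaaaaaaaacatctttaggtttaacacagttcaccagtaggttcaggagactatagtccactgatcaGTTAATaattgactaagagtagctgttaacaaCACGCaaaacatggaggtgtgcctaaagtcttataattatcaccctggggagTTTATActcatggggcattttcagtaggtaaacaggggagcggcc
Over the 22 promoters listed for 20 of the 22 genes, GTTAAT was present in 8 (Ugt1a1, Ugt1a6a, Ugt1a9, Ugt1a10, Ugt2a3, Ugt3a1, Sult1a1 and Sult1d1) and in 7.1% of all 32851 promoters of this length, and these 8 genes include both risers and fallers. GCGTG was present in 5, of Ugt8a, Sult1b1, Sult1d1 and Sult2b1, and in 32.4% of all. TATAAA was present in 2, of Ugt3a1 and Sult1d1, and in 13.6% of all, and the antioxidant response core TGACNNNGC in none, and in 12.4% of all. A match describes letters in these windows only.

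Genes that supply the sulfate donor or clear its product PAP mostly fell with cisplatin, and most were higher in cotreated than in cisplatin mice. The 9 tested genes serve PAPS synthesis, transport of sulfate or PAPS and, for Bpnt1 and Impad1, the removal of PAP. Of these, 7 fell and 1 rose with cisplatin (35.9% and 34.6% of all tested genes), and 6 rose and 0 fell in cotreated against cisplatin mice (28.6% and 27.2%). Against vehicle, 5 were lower and 2 higher in cotreated mice (29.9% and 29.8%). Slc26a1, the basolateral sulfate exchanger of the proximal tubule, had 200.4 ± 14.9 CPM in vehicle, 12.1 ± 3.94 in cisplatin and 79.3 ± 9.50 in cotreated mice (log2 fold change -4.06 ± 0.16 (SE), adjusted p = 1.67e-15 with cisplatin). Slc13a1, the apical sodium-sulfate cotransporter, had 457 ± 71.6, 255 ± 90.8 and 877 ± 113 CPM and, like Sult1d1, was higher in cotreated than in vehicle mice (log2 fold change 0.94 ± 0.19 (SE), adjusted p = 0.000252). Bpnt1, the nucleotidase that clears the PAP left by sulfation, was among the 7 that fell with cisplatin (log2 fold change -1.64 ± 0.08 (SE), adjusted p = 1.34e-14). Papss2, a PAPS synthase, fell with cisplatin (log2 fold change -1.34 ± 0.12 (SE), adjusted p = 5.99e-10) and rose with cotreatment against it (log2 fold change 1.07 ± 0.11 (SE), adjusted p = 4.08e-08). Of the 5 genes for UDP-glucuronic acid supply, 3 rose and 2 fell with cisplatin, among them Pgm2, a phosphoglucomutase family member (log2 fold change 1.06 ± 0.07 (SE), adjusted p = 5.07e-12), Ugdh, which makes UDP-glucuronic acid (log2 fold change 0.90 ± 0.11 (SE), adjusted p = 1.22e-07), and Ugp2, which makes UDP-glucose (log2 fold change -0.59 ± 0.05 (SE), adjusted p = 1.66e-10).

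Of 5 tested genes that cleave conjugates or sulfate esters, 1 rose and 3, the sulfatases Arsg, Arsb and Arsk, fell with cisplatin (log2 fold change -1.63 ± 0.12 (SE), adjusted p = 4.8e-11 for Arsg), while Gusb, the beta-glucuronidase, did not pass the test (log2 fold change 0.0044 ± 0.08 (SE), adjusted p = 0.964). Other conjugating transferases divided too, with 3 higher and 5 lower of 8 tested. Inmt, the indolethylamine N-methyltransferase, had the widest change, from 1067 ± 85.9 CPM in vehicle to 11.2 ± 3.09 CPM in cisplatin mice (log2 fold change -6.58 ± 0.29 (SE), adjusted p = 6.08e-15). Of 15 transcription factors and partners known to act on Ugt and Sult genes, 5 rose and 7 fell with cisplatin. The shares of all tested genes called higher and lower were 34.6% and 35.9%, and the counts of these short lists lie near them or rest on few genes. Esr1, the estrogen receptor alpha, fell (log2 fold change -1.44 ± 0.15 (SE), adjusted p = 1.02e-08), and Nfe2l2, the oxidative stress factor NRF2, rose (log2 fold change 1.38 ± 0.06 (SE), adjusted p = 7.72e-15), as did Ppara, the fatty acid receptor (log2 fold change 0.89 ± 0.11 (SE), adjusted p = 1.24e-07). In cotreated mice Nfe2l2 was lower than in cisplatin mice (log2 fold change -0.58 ± 0.06 (SE), adjusted p = 1.74e-08).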

How the data were processed

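Kidney mRNA of 22 mice was sequenced from a stranded poly(A) kit, 1 library per mouse. Per the study's methods and the labels, the authors made base calls with bcl2fastq 2.17.1.14, aligned reads to mm10 with STAR and counted reads per Ensembl gene with HTSeq 0.6.1p1 in union mode. The deposited values are these raw counts. Whether strand was used in counting is not given in the sources used here, and 66 unnamed empty columns were ignored. Libraries held 26471762 to 40510754 counts (median 32721214.5).

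Genes with enough counts (a CPM of about 0.306 in enough libraries, by edgeR's filter) left 17131 tested genes, which held 99.9% of counts. Counts were normalized by TMM and fitted over all 4 groups with edgeR 4.0.16 in R 4.3.3 (quasi-likelihood F test, Benjamini-Hochberg adjustment over all tested genes, threshold 0.05, biological coefficient of variation 0.129). The steps were tested on simulated data. The difference of KW6002 effects is an interaction term. Groups came from the sample labels. Exons, shared bases and 50-base windows came from GENCODE M21 on GRCm38, which is not the annotation release of the counting. Values per mouse are printed for members past the threshold in at least 1 comparison with a mean of at least 5 CPM in at least 1 group, and the rest are given by range. Pathway genes given values are those past the threshold with the widest changes, and Slc13a1 and Gusb were added after their values were seen. The members and the gene lists were chosen with earlier results of these data known. Alternatives were DESeq2 1.42.0, other scaling and filters, only the groups compared, a replicate block, the label series, the thresholds of the study and leaving out each library. KW6002 against vehicle among mice numbered in the 300s was added after seeing the data. No pair of libraries agreed within sampling noise (smallest chi-square per gene 2.941).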

Additional observations from a re-analysis of the deposited data

Results flagged for a closer look

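In 12 genes the effect of KW6002 with cisplatin differed from its effect without cisplatin by the interaction test (edgeR, adjusted p below 0.05). On the log2 scale the difference was 4.25 for Ugt2a3, 3.74 for Ugt1a2, 3.65 for Ugt2b37, 2.40 for Ugt2b5, 2.28 for Sult1c2, 2.02 for Ugt3a1, 1.95 for Ugt2b38, 1.67 for Ugt3a2, 0.72 for Sult1d1 and 0.56 for Sult1b1. It was negative for Sult5a1 (-1.14) and Sult1a1 (-0.37). Among the mice numbered in the 500s, Sult1b1 (0.40, adjusted p = 0.241) and Sult1a1 (-0.30, adjusted p = 0.19) lost their calls. The value of Ugt2a3 rests on 3 counts in the cisplatin libraries and depends on the prior count.

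In 9 of 88 groups of 5 or 6 mice (10.2%) 1 mouse lay apart from the others by Dixon's criterion, which chance meets in about 1 in 20 groups. In cotreated mice these were Ugt1a7c in mouse 6 (310.0 CPM, the highest, with the next at 279 CPM), which is the library with adrenal markers, and Sult5a1 in mouse 1 (3.68 CPM, next 2.35 CPM). In KW6002 mice they were Ugt3a2 in mouse 6 (1440.0 CPM, the lowest, next 1580.0 CPM), Ugt2b35 in mouse 3 (0.176 CPM, next 0.0561 CPM), and, both in mouse 4, Ugt2a3 (1.85 CPM, next 1.09 CPM) and Sult1b1 (5.62 CPM, next 4.62 CPM). In vehicle mice they were Ugt1a6b in mouse 2 (1.48 CPM, next 1.06 CPM), Ugt1a2 in mouse 1 (0.906 CPM, the lowest, next 1.68 CPM) and Ugt2b5 in mouse 3 (0.907 CPM, the lowest, next 1.36 CPM).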

How the results depend on the processing

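No direction turned for a gene past the threshold under the alternatives run. The counts of members called were those of the main analysis, to within 1.5 times, with DESeq2, other normalization factors, the low-count filter dropped or tightened to 10 counts in every library, scaling by library size, only the groups compared and the label series as a covariate. At the stricter thresholds of the study, 1 member in place of 4 was lower in cotreated than in cisplatin mice, and 1 in place of 2 had a negative difference of KW6002 effects. That count was also 1 among the mice numbered in the 500s, where Sult1a1 lost its call (-0.30, adjusted p = 0.19) as it did without vehicle mouse 1 (-0.34, adjusted p = 0.0516), vehicle mouse 3 (-0.34, adjusted p = 0.0553) or cisplatin mouse 2 (-0.32, adjusted p = 0.0614). The causes were not tested. Scaling by library size moved the all-gene median of the log2 fold changes by 0.204 for cisplatin and 0.155 for cotreated against vehicle mice.

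Leaving out each library in turn gave 10 to 11 members higher and 8 to 9 lower for cisplatin against vehicle, 10 to 12 higher and 4 lower for cotreated against cisplatin, 11 to 12 higher and 8 lower for cotreated against vehicle, 0 for KW6002 against vehicle, and 10 to 11 positive and 1 to 2 negative differences of KW6002 effects. Among the genes, Sult5a1 in cotreated against vehicle mice lost its call with the label series as a covariate (0.41, adjusted p = 0.091) and among the mice numbered in the 500s (0.45, adjusted p = 0.161), and Sult1b1 lost its difference of KW6002 effects among the latter (0.40, adjusted p = 0.241). Ugt8a gained a difference of KW6002 effects in both of these alternatives (0.58, adjusted p = 0.000709, and 0.62, adjusted p = 0.00138) and without vehicle mouse 1 (0.65, adjusted p = 0.0388). For Ugt1a6b, cotreated against vehicle mice gave -0.49 (adjusted p = 0.07) and -0.55 (adjusted p = 0.104) in these alternatives.

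With a replicate block, 11 members were higher and 9 lower with cisplatin, 12 and 4 in cotreated against cisplatin mice, and 11 and 8 in cotreated against vehicle mice, with 0 for KW6002 alone and 11 and 2 for the difference of KW6002 effects. Ugt1a10 was the gene gained, in cotreated against cisplatin mice (0.55, adjusted p = 0.0314) and in the difference of effects (adjusted p = 0.0369). Whether the replicate numbers pair the mice was not tested against chance. Of 31 pairs with the same number, 8 had a correlation of deviations over 0.1 (range -0.256 to 0.518). The median was 0.0188 for these pairs and 0.00065 for pairs with different numbers, and 6 of 22 libraries correlated best with their own number.

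Depth limits Ugt1a9, Ugt2a3 and Ugt2b35, which had at most 7, 1 and 1 counts in the libraries of their low group, and Ugt1a6b, with at most 50 counts in a library.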
